A study of Mus musculus with 12 samples.

Results

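The mouse genes named Zfp followed by a number are, for the most part, genes for C2H2 zinc finger proteins, in which short loops held by a zinc ion read bases of DNA or RNA. The members described here were all gene symbols of that form present in both deposited count tables, with Zfp36 and Zfp395 left out, which gave 322 genes of the 13625 symbols that the tables share. Zfp36 binds messenger RNA through another kind of zinc finger. The tables held 331 and 379 symbols of this form, so 7 were found in the table without restimulation alone and 55 in the restimulated table alone. The members were chosen by name and by presence in both tables. Row sums in the table without restimulation began at 10, so its counts limited the choice.

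The cells were OT-I T cells, mouse T cells that carry a transgenic receptor for an ovalbumin peptide. All groups were expanded with anti-CD3e and anti-CD28 antibodies and IL-2, left in culture for 5 days and then kept for 72 h at 1% oxygen with GL261 glioma cells that express chicken ovalbumin, a culture that the sample titles call exhaustion. The ATRA groups received 5 ng/mL all-trans retinoic acid during the expansion and the CTRL groups received the same volume of its solvent DMSO, and nothing was added during the co-culture. Live CD45.2+ cells were sorted either directly after co-culture or after a further 24 h with anti-CD3e, which makes 4 groups of 3 libraries each. All groups thus share the receptor, the tumour cells and low oxygen, and none was sampled before co-culture. No label tells if replicate libraries stem from different mice or cultures, and p-values therefore describe only how these libraries varied.

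Many Zfp proteins carry, beside their fingers, a KRAB domain that recruits TRIM28 (also called KAP1). TRIM28 in turn brings in the histone methyltransferase SETDB1, HP1 proteins and deacetylases, and KRAB proteins of this kind silence endogenous retroviruses and imprinted loci. Their genes lie in clusters that arose by duplication, and neighbouring copies can be so alike that short reads are hard to place. Other Zfp genes are unrelated in function and code for splicing, ribosome or mitotic factors. Retinoic acid acts through the nuclear receptors RAR and RXR.

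Promoter sequence is shown for members called in opposite directions in the 2 states, with the largest differences of the ATRA effects in each order, since these results turn on them. The 150 bases directly before the RefSeq start of 4 such genes are shown 5′ to 3′ on the gene's strand, from RefSeq on build GRCm38.p6, with GC boxes (GGGCGG on either strand) and the hypoxia element core (ACGTG on either strand) in capitals. Zfp318 (chr17:46383616-46383765, plus strand) and Zfp948 (chr17:21566828-21566977, plus strand) were lower with ATRA after co-culture and higher with ATRA after restimulation. Zfp365 (chr10:67912663-67912812, minus strand) and Zfp710 (chr7:80024664-80024813, plus strand) showed the reverse.
Zfp318: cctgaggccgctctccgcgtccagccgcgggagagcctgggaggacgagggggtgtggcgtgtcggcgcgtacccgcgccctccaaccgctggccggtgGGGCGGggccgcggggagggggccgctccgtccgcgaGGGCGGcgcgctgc
Zfp948: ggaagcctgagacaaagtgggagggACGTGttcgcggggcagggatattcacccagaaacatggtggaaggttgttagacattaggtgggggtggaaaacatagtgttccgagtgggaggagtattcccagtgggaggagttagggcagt
Zfp365: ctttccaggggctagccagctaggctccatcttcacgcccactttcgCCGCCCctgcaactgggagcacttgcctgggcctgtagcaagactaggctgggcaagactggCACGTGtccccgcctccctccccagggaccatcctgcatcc
Zfp710: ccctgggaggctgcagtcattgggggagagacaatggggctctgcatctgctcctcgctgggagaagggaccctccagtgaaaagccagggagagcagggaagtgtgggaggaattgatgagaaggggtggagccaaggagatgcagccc
The Zfp318 window held 24 CG pairs and 2 GC boxes, against 4 CG pairs and no GC box for Zfp948, 5 and 1 for Zfp365, and 1 and none for Zfp710. The 2 members with each response differed in their counts of CG pairs and GC boxes. No copy of AGGTCA, the core site that RAR and RXR bind, was in these 4 windows on either strand. Over the 250 bases before 324 RefSeq starts of 267 members, GGGCGG was in 41.0% of windows, against 32.7% of the 32851 windows of all genes. AGGTCA was in 10.8% against 14.0%, ACGTG in 18.5% against 16.6% and TATAAA in 6.79% against 12.4%, all on both strands. The median window of the members held 11 CG pairs, against 6 over all windows. These matches are a description of letters and not of bound sites.

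Total counts were 23558244 to 26111497 per library after co-culture and 16288111 to 20115836 after restimulation. CPM is a gene's count relative to all counts of its library, given here after edgeR's TMM scaling except for the floor that follows. At the lowest of these totals, 3 counts correspond to 0.184 CPM without that scaling, and such floors cover counting error only. Correlations of log CPM over the members were 0.953 to 0.988 between ATRA libraries after co-culture and 0.962 to 0.987 within the other groups. An earlier account of these data names CTRL replicate 1 and ATRA replicate 3 after co-culture as libraries that stand apart, so counts of calls are also given without both. The 6 T cell markers in both tables reached together 1159.6 to 1589 CPM with CTRL and 1487 to 1597 CPM with ATRA after co-culture, and all 7 listed reached 1079 to 1321 and 1356 to 1383 CPM after restimulation. The summed level of GL261-like markers (6 of 8 listed genes) was 139.8 to 186 CPM after co-culture with CTRL and 118 to 124 CPM with ATRA, and that of all 8 was 105 to 109.96 and 216 to 226 CPM after restimulation, where Sparc and Cald1 were at 0 in all ATRA libraries and Col4a1 in all CTRL libraries. For dendritic cell markers (6 of 7) the sum after co-culture was 83.5 to 91.4 CPM with CTRL and 152 to 248 CPM with ATRA, and with all 7 it was 72.1 to 108 and 97.6 to 98.5 CPM after restimulation. For CD4 T cell markers (3 of 3) it was 39.9 to 45.3 CPM with CTRL and 73.4 to 76.3 CPM with ATRA after co-culture, and 18.2 to 23.5 and 22.2 to 25.1 CPM after restimulation. Monocyte and macrophage markers gave 12.3 to 13.4 CPM with CTRL and 19.9 to 24.2 CPM with ATRA after co-culture (3 of 6), and 11.6 to 17.0 and 23.1 to 24.1 CPM after restimulation (6 of 6), with Csf1r at 0 in all restimulated libraries and Lyz2 in the CTRL ones. These sums differed between ATRA and CTRL groups, and their part in the member differences was not tested. In bulk RNA, fewer cells of a type and less RNA per cell cannot be told apart.

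All 322 members had a count in at least 1 library, which follows from their presence in the co-culture table, and 297 had one in every library. Their mean over the 12 libraries was below 1 CPM for 36 members, 1 to 10 CPM for 141, 10 to 100 CPM for 135 and above that for 10. Together they took 6549 to 6573 CPM in the CTRL libraries after co-culture, 6945 to 7637 in the ATRA libraries, 6739 to 7410.1 in the restimulated CTRL libraries and 7408 to 7511 in the restimulated ATRA libraries. The members were therefore a small part of the messenger pool in all groups, and most sat at low counts.

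Zfp106, an RNA-binding protein needed by motor neurons, had the highest mean CPM of any member in each group, with 582 ± 22.8 CPM (SD, n = 3) in CTRL and 561 ± 46.6 CPM in ATRA cells after co-culture. In those ATRA cells it was not resolved from Zfp292 at 558 ± 208 CPM, which was above it in replicate 3. After restimulation Zfp106 stood at 486 ± 45.8 CPM in CTRL and 517 ± 2.40 CPM in ATRA cells. CPM grows with transcript length, so levels of different genes were compared by TPM (transcript abundance corrected for length), which were deposited for the restimulated libraries. On that scale, ranked by the mean over both groups, Zfp706, a small protein, led with 212 ± 29.1 TPM in CTRL and 155 ± 11.9 TPM in ATRA cells. Zfp207, a spindle assembly factor that binds BUB3, followed at 175 ± 3.72 and 168 ± 4.95 TPM, then Zfp87 at 204 ± 41.2 and 119 ± 10.8 TPM and Zfp106 at 156 ± 28.0 and 149 ± 3.86 TPM. In CTRL cells each neighbouring pair in the order Zfp706, Zfp87, Zfp207 and Zfp106 differed by less than the larger SD, so this order is not resolved. In ATRA cells Zfp207 was highest, and the next 4, Zfp706, Zfp800 (155 ± 12.4 TPM), Zfp638 (153 ± 5.30 TPM) and Zfp106, each differed from its neighbour by less than the larger SD, while Zfp87 stood lower. Zfp236 is left out of this order because its deposited TPM columns disagreed with its counts.

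The first comparison was ATRA against CTRL cells directly after co-culture. Of 303 members with enough counts to test, 39 rose and 19 fell with ATRA at an adjusted p under 0.05, which is 19.1% of them. Over all 12111 genes tested, 33.6% were called, with 18.1% higher and 15.5% lower. The median log2 fold change was 0.02 for the members and 0.01 for all genes. The lower share of calls was also seen at matched levels, with 11.4% of members against 31.1% of all genes at 1 to 10 CPM and 26.7% against 34.9% at 10 to 100 CPM. The 3 ATRA values did not overlap the 3 CTRL values for 134 members (44.2%), against 56.7% of genes tested in this comparison and present in both tables.

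The member count after co-culture depended on single libraries. With the batch that the labels assign to each replicate number as a block, 24 members were higher and 6 lower (9.9% of members and 23.9% of all genes). Without CTRL replicate 2 the counts were 13 and 2, without CTRL replicate 3 14 and 2, and without ATRA replicate 2 18 and 3, and the shares over all genes then fell too, to 14.3%, 13% and 18.1%. The lower count was 11 without CTRL replicate 1, 12 without ATRA replicate 1 and 30 without ATRA replicate 3, with 27.5%, 30.7% and 45.4% of all genes called. Without both libraries named as apart, 81 were higher and 48 lower, and the share over all genes was then 65.1%.

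Zfp652, whose protein works with the corepressor CBFA2T3, gave the clearest rise after co-culture. Its CTRL libraries had 7.16, 7.03 and 7.96 CPM and its ATRA libraries 24.2, 26.5 and 24.3 CPM. Every ATRA library was thus far above every CTRL library, and the log2 fold change was 1.76 ± 0.13 (SE; adjusted p = 0.000638). Zfp516, a cofactor of the brown fat gene program, went from 4.98, 2.57 and 1.69 CPM in CTRL to 13.6, 16.8 and 20 CPM in ATRA libraries (log2 fold change 2.45 ± 0.40, adjusted p = 0.00652). Its CTRL values were widely spread, and still the groups did not overlap. Zfp365, a centrosome and DNA repair protein, rose from 2.64, 1.81 and 2.05 to 7.00, 6.32 and 10.3 CPM (1.86 ± 0.27, adjusted p = 0.00449). Zfp710 rose by 1.95 ± 0.27, Zfp316 by 1.58 ± 0.24 and Zfp629 by 1.41 ± 0.24 on the log2 scale. All 6 of these calls held when any 1 library was left out. Zfp292, a large protein second in reads among the members in each group, had 275, 233 and 238 CPM in CTRL and 410, 468 and 795 CPM in ATRA libraries. Its rise of 1.16 ± 0.24 (adjusted p = 0.0143) was lost without CTRL replicate 2 or 3 (adjusted p = 0.0641 and 0.0649).

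Zfp318, which in B cells allows the long transcript that makes IgD, showed the clearest fall after co-culture. It stood at 22.4, 24.3 and 26.2 CPM in CTRL and 7.5, 7.61 and 5.27 CPM in ATRA libraries. The groups were well apart, and the log2 fold change was -1.83 ± 0.19 (adjusted p = 0.00159). Zfp948 went from 21.1, 19.4 and 19.5 to 9.44, 7.93 and 11.3 CPM (-1.06 ± 0.16, adjusted p = 0.00492). Both falls held without any 1 library. Zfp568, a KRAB protein that silences a placental Igf2 promoter, fell by 1.05 on the log2 scale (SE 0.23), Zfp976 by 1.52 (SE 0.38), Zfp326, a subunit of a complex that links transcription and splicing, by 0.88 (SE 0.24) and Zfp324 by 0.76 (SE 0.20). These 4 calls were less firm. Each was lost without CTRL replicate 2 or CTRL replicate 3, and without 1 or 2 further libraries among CTRL replicate 1, ATRA replicate 1 and ATRA replicate 2, with adjusted p between 0.0503 and 0.105. Zfp324 was also lost with the batch block (adjusted p = 0.0612).

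A few members with very low counts in the CTRL groups had large ratios after co-culture, and were picked out after their values were seen. Zfp532, a chromatin protein of the ZMYND8 complex, had 4, 1 and 1 counts in the CTRL libraries and 31, 39 and 22 in the ATRA libraries. Scaled by library totals this is a ratio of 15.9 (95% exact counting interval 7.01 to 44.3, which covers counting error only). Zfp111 had 3, 2 and 3 counts in CTRL and 30, 17 and 20 in ATRA libraries (ratio 8.66, interval 4.15 to 20.9), and Zfp618 had 4, 4 and 1 against 27, 22 and 13 (ratio 7.13, interval 3.52 to 16.3). Calls for these 3 genes passed the test (adjusted p = 0.00498, 0.00444 and 0.0125), and that of Zfp618 was lost without CTRL replicate 2 or 3 (adjusted p = 0.0515 and 0.0517). The 3 genes had enough counts to test only through their ATRA libraries, so these adjusted p-values add no support. The fitted log2 fold change of Zfp532 moved from 3.98 to 4.92 without CTRL replicate 1.

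After restimulation more members differed between ATRA and CTRL cells. Of 301 tested, 67 rose and 60 fell, 42.2% in all, against 62.6% of all 12783 genes tested (31.8% higher and 30.8% lower). The median log2 fold change was -0.02 for the members and 0.02 for all genes. At 1 to 10 CPM 29.1% of members and 48.1% of all genes were called, and at 10 to 100 CPM 56.3% and 68.6%. Groups did not overlap for 160 members (53.2%), against 70.1% of such genes. Leaving out any 1 library gave 58 to 72 higher and 50 to 66 lower members, with 55.5% to 62.7% of all genes called.

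Zfp263, a repressor with a SCAN and a KRAB domain, rose most firmly. Its 3 CTRL libraries had 21.1, 22.9 and 20.8 CPM and its ATRA libraries 74.2, 73.9 and 77.7 CPM. The replicates of each group lay close together and the groups far apart (log2 fold change 1.81 ± 0.09, adjusted p = 1.03e-08). Zfp703, a corepressor known as an oncogene in breast cancer, went from 4.33, 5.16 and 5.06 to 16.1, 15.5 and 17.1 CPM (1.75 ± 0.16, adjusted p = 1.76e-06). Zfp597 rose from 8.44, 7.67 and 12.8 to 27.5, 37.0 and 35.1 CPM (1.79 ± 0.19, adjusted p = 1.38e-05). Zfp597 overlaps Zfp174 and Naa60 in RefSeq, and sharing of reads between these genes was not tested. Zfp629 rose by 2.38 ± 0.46 and Zfp768 by 1.82 ± 0.32, and both had also risen after co-culture, by 1.41 ± 0.24 and 1.1 ± 0.16. Zfp467, which steers marrow progenitors between fat and bone, rose from 0.169, 0.798 and 0.431 to 1.68, 2.09 and 1.55 CPM (1.94 ± 0.53, adjusted p = 0.00681), and by 2.53 without CTRL replicate 2. Zfp467 had enough counts to test there only through its ATRA libraries.

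Zfp469, whose human counterpart is mutated in brittle cornea syndrome, was nearly absent from restimulated CTRL cells, with 1, 0 and 0 counts, against 46, 55 and 23 in ATRA libraries. Scaled by library totals the ratio was 114, with a 95% exact counting interval from 20.1 to 4530 that shows how little the single CTRL count fixes it (adjusted p = 3.23e-05). After co-culture the order of Zfp469 was the reverse, with 9, 10 and 12 counts in CTRL and 0, 1 and 4 in ATRA libraries, too low to test there. In the joint fit its difference of effects was 8.86 ± 1.28 (adjusted p = 0.000142), which rests on these few counts. Zfp532 had 0, 0 and 3 counts in CTRL and 42, 25 and 28 in ATRA libraries (ratio 29.1, interval 9.65 to 143, adjusted p = 0.000277). Its fitted log2 fold change of 4.74 moved to 7.94 without CTRL replicate 3, and that of Zfp469 from 6.42 to 8.34 without CTRL replicate 1. Zfp469 and Zfp532 had enough counts to test after restimulation only through their ATRA libraries, so their adjusted p-values add no support. Zfp618, at 2, 5 and 5 counts in CTRL, was at 0 in all 3 restimulated ATRA libraries and too low to test there.

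Among the falls after restimulation, Zfp101 was the firmest, with 32.5, 26.3 and 32.0 CPM in CTRL and 10.5, 9.62 and 9.89 CPM in ATRA libraries (log2 fold change -1.59 ± 0.13, adjusted p = 5.1e-07). Zfp808 went from 13.3, 9.39 and 10.5 to 1.84, 2.09 and 3.35 CPM (-2.17 ± 0.26, adjusted p = 1.62e-05). Zfp473, a part of the U7 snRNP that processes histone messenger RNA, went from 7.65, 6.81 and 6.51 to 0.670, 1.41 and 1.75 CPM (-2.43 ± 0.33, adjusted p = 3.73e-05). Every ATRA library was below every CTRL library for these 3 genes. Zfp365 fell by 1.80 (SE 0.36), Zfp239 by 1.59 (SE 0.27) and Zfp775 by 1.48 (SE 0.35) on the log2 scale. Leaving out any 1 library ended none of these 6 calls.

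A list of 27 members with known roles, chosen by name, was followed in both comparisons. Over all genes 18.1% rose and 15.5% fell after co-culture, and 31.8% rose and 30.8% fell after restimulation. After co-culture 3 of the 26 tested rose (Zfp217, Zfp292 and Zfp622) and 4 fell (Zfp318, Zfp568, Zfp638 and Zfp830). The other 19 had log2 fold changes from -0.43 (Zfp932) to 0.50 (Zfp609) with adjusted p of at least 0.0555, and Zfp609 passed when the batch was blocked. After restimulation 10 of 27 rose and 3 fell, and the other 14 had log2 fold changes from -1.31 (Zfp131) to 0.27 (Zfp593) with adjusted p of at least 0.0558. The rise of Zfp281, a repressor known from stem cells, was lost with the batch as a block (adjusted p = 0.0549) and without any 1 library other than CTRL replicate 1 (adjusted p between 0.0645 and 0.0969). Zfp131 varied widely within a group, at 3.04, 1.1 and 0.377 CPM in CTRL libraries, and its difference was -0.28 without CTRL replicate 1 and passed the test without CTRL replicate 3.

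Several of the named members are factors of RNA or ribosome biology. Zfp622, needed for maturation of the large ribosomal subunit, had 71.6, 72.2 and 68.3 CPM in CTRL and 85.9, 92.1 and 128 CPM in ATRA libraries after co-culture (0.53 ± 0.15, adjusted p = 0.0384), and rose by 0.69 ± 0.09 after restimulation (adjusted p = 4.24e-05). Zfp638, an RNA-binding protein that brings the HUSH silencing complex to unintegrated retroviral DNA, fell by 0.37 (SE 0.10) after co-culture and rose by 0.33 ± 0.06 after restimulation. Zfp830, a splicing factor needed in early embryos, likewise fell by 0.39 (SE 0.12) and then rose by 0.56 ± 0.12. All 3 changes after co-culture were small, and all 3 were lost with the batch block (adjusted p = 0.0710, 0.0739 and 0.110), without any 1 CTRL replicate and without ATRA replicate 2, and that of Zfp830 also without ATRA replicate 1 (adjusted p between 0.0682 and 0.152). Zfp598, the ligase that senses collided ribosomes, differed by 0.01 ± 0.20 after co-culture and -0.14 ± 0.10 after restimulation, neither past the test.

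Zfp335, which mature T cells need to leave the thymus and persist, rose after restimulation from 49.7, 53.9 and 52.7 CPM in CTRL to 89.4, 85.5 and 93.2 CPM in ATRA libraries (0.79 ± 0.08, adjusted p = 3.83e-06). After co-culture its difference of 0.45 ± 0.24 did not pass, and ATRA replicate 3 lay far above the others at 144 CPM. Zfp410, an activator known for its near-exclusive control of Chd4, rose after restimulation from 27.4, 30.3 and 32.6 to 48.1, 50.9 and 51.7 CPM (0.75 ± 0.10, adjusted p = 4.69e-05). Chd4, a chromatin remodeller, differed in the same libraries by 0.00 ± 0.05 (629.6 ± 3.84 CPM in CTRL, 626 ± 6.24 CPM in ATRA). Chd4 fell by 0.33 (SE 0.10) after co-culture (adjusted p = 0.0487), while Zfp410 differed there by -0.26 ± 0.13 (adjusted p = 0.176).

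Several KRAB proteins with known silencing roles were on this list. Zfp809, which recognises the primer binding site of murine leukaemia virus, had 14.3, 15.2 and 17.3 CPM in CTRL and 15.7, 13.8 and 13.9 CPM in ATRA libraries after co-culture, and 20.4, 20.6 and 22.4 against 25.2, 25.4 and 24.6 CPM after restimulation. Neither difference passed (-0.10 ± 0.14 and 0.25 ± 0.11, adjusted p = 0.587 and 0.0558), and the latter passed without CTRL replicate 3. Zfp445, which protects imprints, differed by -0.16 ± 0.11 and 0.22 ± 0.10 (adjusted p = 0.262 and 0.0914). Zfp57, its partner in imprint control, was barely detected, with 0, 9 and 6 counts in CTRL and 6, 3 and 1 in ATRA libraries after co-culture, and 1, 6 and 1 against 11, 12 and 15 after restimulation. Its rise after restimulation (2.07 ± 0.75, adjusted p = 0.0295) was lost without any 1 library other than CTRL replicate 2 (adjusted p between 0.0629 and 0.106), and was 3.44 without that library. Zfp57 had enough counts to test there only through its ATRA libraries. Zfp932, which acts on endogenous retroviruses, fell by 0.46 (SE 0.12) after restimulation.

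The effects of ATRA in the 2 states were then set against each other for the 296 members tested in both, which rest on separate CTRL and ATRA libraries. Of these, 145 (49.0%) were called in neither state, against 25% of the 11369 genes tested in both. The calls pointed the same way for 12 members and opposite ways for 18. The members higher in both were Zfp236, Zfp263, Zfp532, Zfp622, Zfp629, Zfp655, Zfp768 and Zfp777, and those lower in both were Zfp101, Zfp472, Zfp644 and Zfp770. Over all genes, 5.78% were higher in both states, 5.21% lower in both, 5.51% higher then lower and 6.02% lower then higher.

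**Figure D1:**
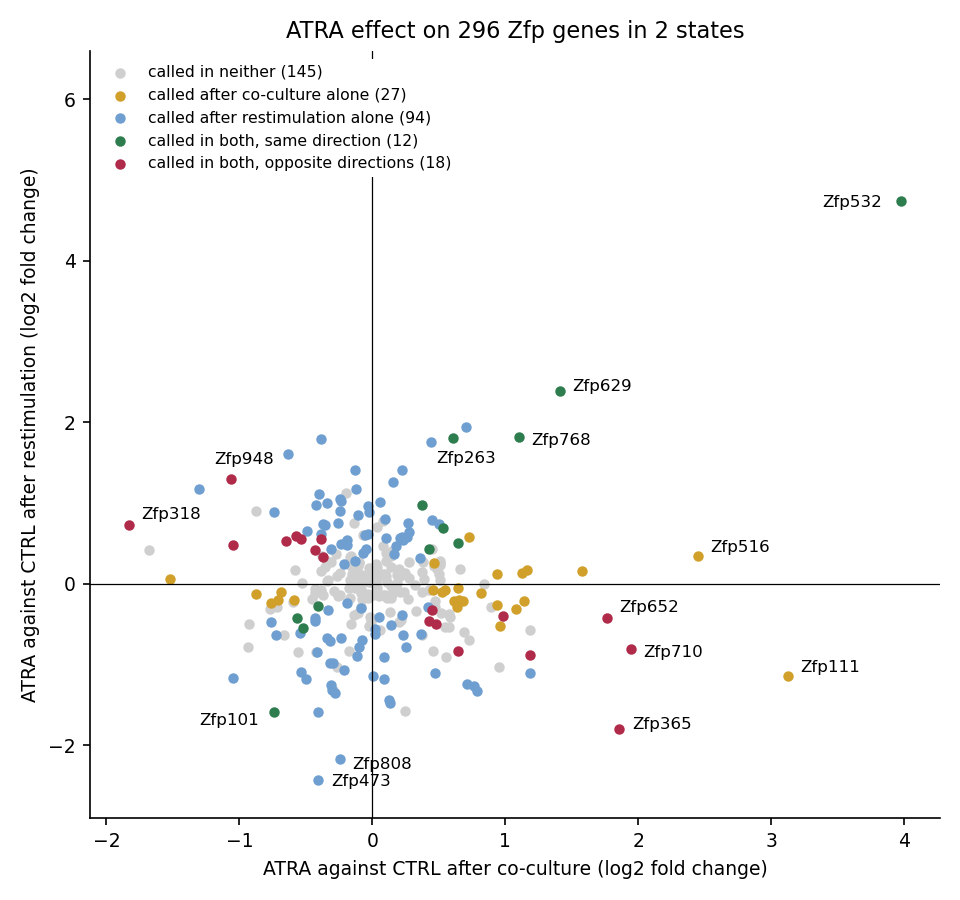
Log2 fold change of ATRA against CTRL after co-culture (horizontal) and after restimulation (vertical) for 296 Zfp genes, 1 point a gene, coloured by the calls at an adjusted p under 0.05. The 18 genes called in opposite directions lie in the upper left and lower right quadrants, and Zfp532 stands alone at the upper right.

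The difference of the 2 effects was tested in a joint fit of all 12 libraries. It was called for 113 of 310 members (36.5%), with 46 more positive and 67 more negative after restimulation, against 49.2% of all genes, and without the 2 libraries named as apart for 55 and 79. Without those 2 libraries the share over all genes was 59.9%. All 18 members called in opposite directions were also called for the difference. Zfp217, Zfp277, Zfp362, Zfp365, Zfp512, Zfp652, Zfp710, Zfp945 and Zfp984 were higher with ATRA after co-culture and lower after restimulation. Zfp142, Zfp318, Zfp329, Zfp346, Zfp568, Zfp638, Zfp830, Zfp948 and Zfp959 were lower and then higher. In all 18 the ATRA and CTRL libraries did not overlap in either state. The 18 were picked by calls of opposite sign, so the called difference and the lack of overlap largely follow from that choice.

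Zfp318 and Zfp948, whose promoter windows are printed above, led the members that were lower and then higher. After restimulation Zfp318 stood at 12.8, 12.5 and 9.85 CPM in CTRL and 19.2, 20.9 and 17.8 CPM in ATRA libraries (0.73 ± 0.15, adjusted p = 0.000963), so the order of the groups was the reverse of that after co-culture. The difference of the effects was 2.56 ± 0.24 (adjusted p = 4.38e-06). Zfp948 stood at 10.6, 10.0 and 12.1 CPM in CTRL and 25.5, 27.8 and 27.1 CPM in ATRA libraries (1.30 ± 0.13, adjusted p = 2.38e-06), with a difference of effects of 2.36 ± 0.20 (adjusted p = 2.54e-06). Among the 4 groups, the highest Zfp318 values were in CTRL cells after co-culture and the highest Zfp948 values in restimulated ATRA cells. Zfp568 rose by 0.48 ± 0.18 after restimulation (adjusted p = 0.0370), a call lost when the batch was blocked (adjusted p = 0.0526), or in fits lacking CTRL replicate 1 or 3 or ATRA replicate 2 or 3 (adjusted p between 0.0673 and 0.160).

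Zfp365 and Zfp710 led the opposite group. After restimulation Zfp365 had 3.54, 3.44 and 2.85 CPM in CTRL and 1.23, 0.627 and 0.949 CPM in ATRA libraries, with a difference of effects of -3.66 ± 0.42 (adjusted p = 2.28e-05). Zfp710 had 3.32, 4.36 and 4.20 CPM in CTRL and 3.18, 1.83 and 1.75 CPM in ATRA libraries, so that 1 ATRA library nearly reached the CTRL range (-0.81 ± 0.32, adjusted p = 0.0430). Its difference of effects was -2.76 ± 0.41 (adjusted p = 0.000164). Zfp652 had 11.8, 9.82 and 10.3 CPM in CTRL and 8.27, 8.36 and 6.99 CPM in ATRA libraries (-0.42 ± 0.17, adjusted p = 0.0487), with a difference of -2.19 ± 0.19 (adjusted p = 3.27e-06). The falls of Zfp652 and Zfp710 after restimulation were borderline. That of Zfp652 was lost without any 1 of the 6 libraries and that of Zfp710 without CTRL replicate 2 or 3 or ATRA replicate 2 or 3 (adjusted p between 0.0522 and 0.166), and both were lost with the batch block (adjusted p = 0.0769 and 0.0542). Zfp217, a transcription factor bound to CoREST and CtBP, rose by 0.48 ± 0.10 after co-culture, a call lost without CTRL replicate 2 or 3 (adjusted p = 0.0737 and 0.0749), and fell by 0.50 (SE 0.07) after restimulation.

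**Figure D2:**
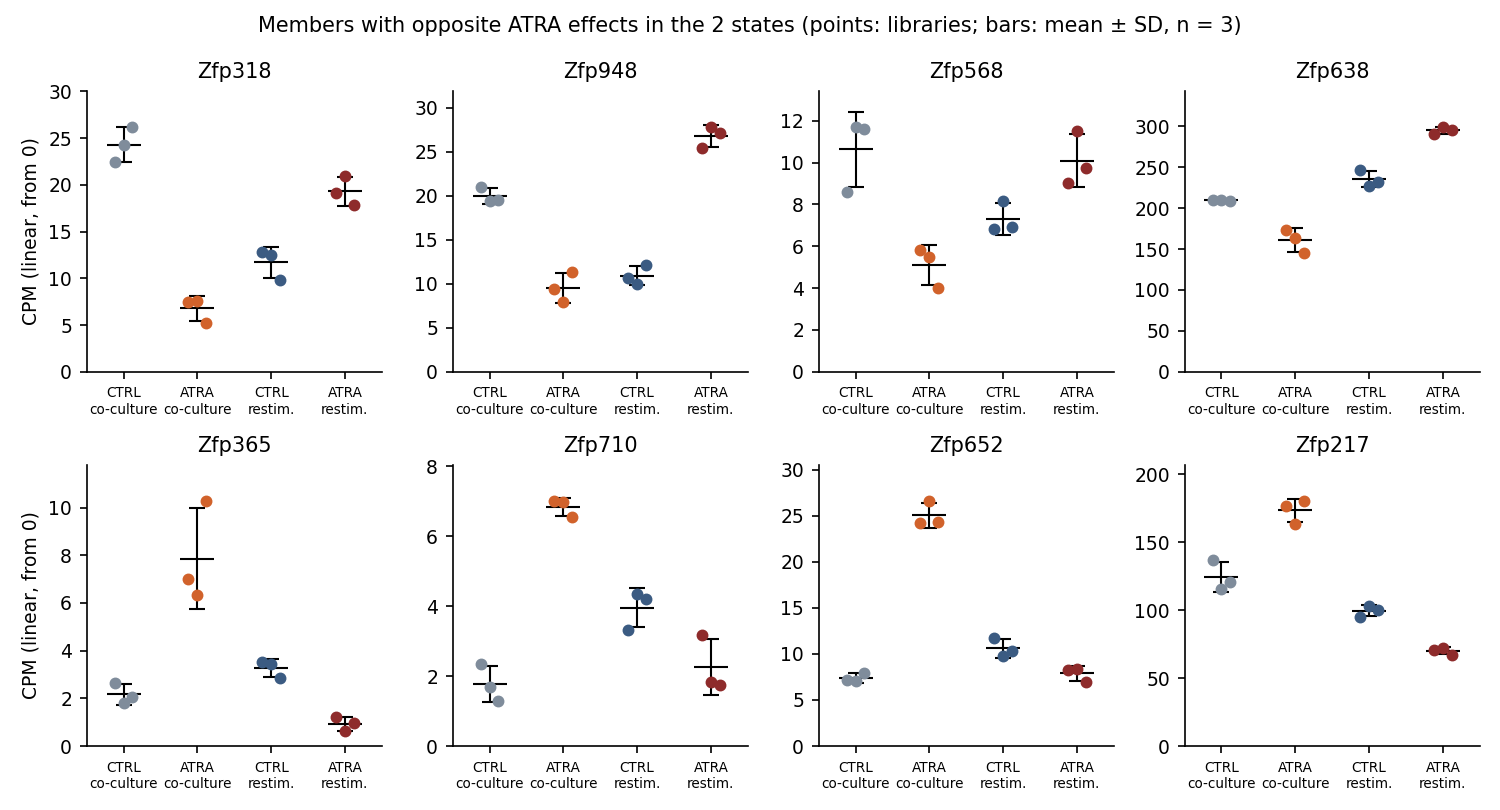
CPM of 8 members in each library of the 4 groups, on linear axes from 0, with bars for the mean and SD of 3 libraries. In the upper row ATRA libraries lie below CTRL libraries after co-culture and above them after restimulation, and in the lower row the order is reversed.

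The difference of effects was also called for members that did not pass the test in both states. Zfp334 had 2.72, 3.42 and 4.45 CPM in CTRL and 1.78, 0.668 and 1.84 CPM in ATRA libraries after co-culture, and 0.844, 1.41 and 1.67 against 2.35, 3.71 and 2.80 CPM after restimulation (difference of effects 2.47 ± 0.57, adjusted p = 0.00352). Zfp3 differed by -2.30 ± 0.52 (adjusted p = 0.00329), with means of 1.11 ± 0.458 CPM in CTRL and 2.51 ± 0.523 CPM in ATRA cells after co-culture and 3.92 ± 0.711 and 1.80 ± 0.747 CPM after restimulation. Zfp9 differed by 2.23 ± 0.75 (adjusted p = 0.0273), but its ATRA libraries after co-culture had 0.621, 0.401 and 2.45 CPM. The call for Zfp9 was lost without 7 of the 12 libraries in turn (adjusted p between 0.0507 and 0.0655), and the value was 3.37 without ATRA replicate 3 of the co-culture.

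Among members called in the same direction in both states, Zfp263 rose by 0.61 ± 0.19 after co-culture, from 19, 20.4 and 20 to 23.4, 27.9 and 39.4 CPM (adjusted p = 0.0493). That call was lost when the batch was blocked (adjusted p = 0.0671), or in fits lacking any 1 CTRL replicate or ATRA replicate 2 (adjusted p between 0.0965 and 0.137). The effect on Zfp263 was 1.19 ± 0.22 larger after restimulation (adjusted p = 0.000768). Zfp101 fell by 0.74 (SE 0.22) after co-culture (adjusted p = 0.0404), lost with the batch block (adjusted p = 0.0709), or without any 1 CTRL replicate or ATRA replicate 2 (adjusted p between 0.0712 and 0.131), and its effect was -0.85 ± 0.25 further after restimulation. The interaction was not called for Zfp236, Zfp532, Zfp622, Zfp629, Zfp768, Zfp777, Zfp472, Zfp644 and Zfp770, which does not show that their effects were alike.

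Restimulated and co-cultured libraries of the same treatment were also compared, with the same 12 libraries as above. State, batch set and table cannot be told apart in this comparison, since the restimulated libraries form a batch set of their own and the tables differ in gene naming. In CTRL cells 56 of 310 members were higher after restimulation and 24 lower, 25.8% in all, against 32.5% of all 12364 genes (15.9% higher and 16.6% lower). The median log2 fold change was 0.20 for the members and 0.02 for all genes, and 208 members (67.1%) were above 0, against 51.5% of all genes. The higher count was 33 without CTRL replicate 2 of the co-culture, 35 without its replicate 3 and 32 without restimulated CTRL replicate 1, and the counts were 82 and 33 without the 2 libraries named as apart. The shares over all genes moved too, to 23.8%, 22.4%, 24.3% and 46.5% in the same order. In ATRA cells 95 members were higher and 70 lower, 53.2%, against 61.3% of all genes (29.8% higher and 31.5% lower), and 91 and 78 without those 2 libraries, where 69.3% of all genes were called. With all libraries the median of the members was 0.11, against -0.03 for all genes, with 176 (56.8%) above 0 against 48.6%. At matched levels the lower share of calls was not seen throughout. In CTRL cells 15.6% of members and 30.8% of all genes were called at 1 to 10 CPM. At 10 to 100 CPM 38.5% and 34.3% were called there, with 28.9% and 16.8% higher. In ATRA cells the shares were 46.1% and 57.1% at 1 to 10 CPM, and 63% and 64.4% at 10 to 100 CPM.

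**Figure D3:**
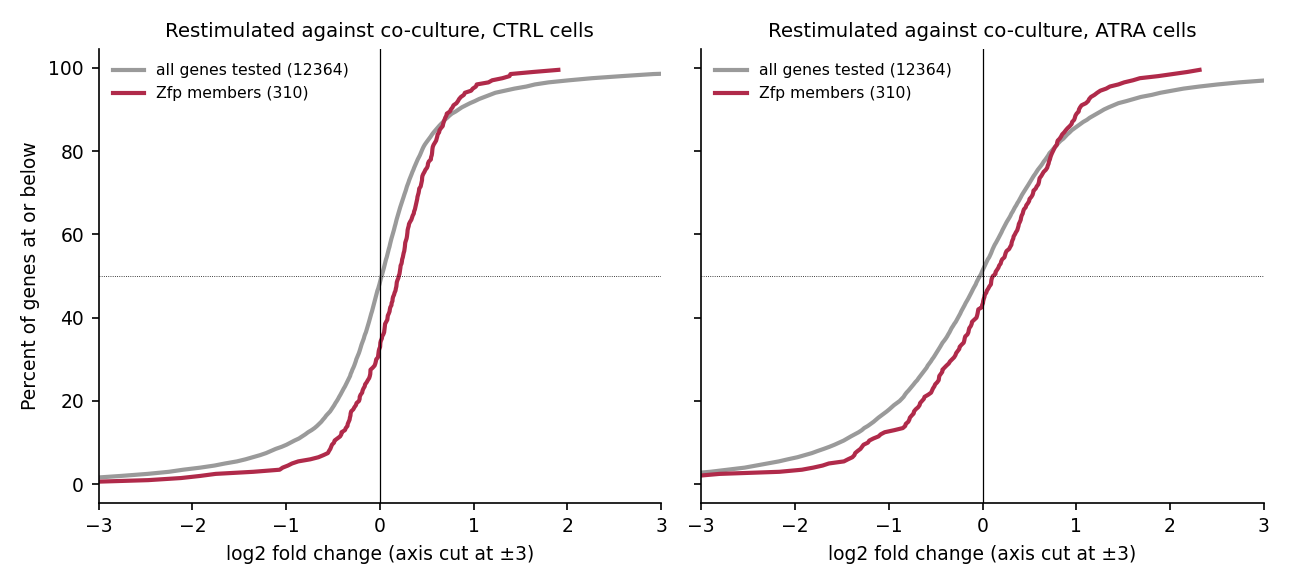
Percent of genes at or below each log2 fold change of restimulated against co-cultured libraries, for 310 Zfp genes (red) and all 12364 genes tested (grey), in CTRL cells (left) and ATRA cells (right). In CTRL cells the curve of the Zfp genes lies to the right of the grey curve over most of its range, crossing 50% at 0.20 against 0.02.

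Zfp608, a regulator of Rag gene expression in thymocytes, had the largest called fall in ATRA cells among members with a mean of at least 1 CPM. It stood at 63.9, 103 and 91.4 CPM in CTRL and 200, 173 and 44.9 CPM in ATRA libraries after co-culture, and at 17.1, 16.6 and 12.4 and 5.70, 5.80 and 7.79 CPM after restimulation. All restimulated libraries were below all co-cultured ones, by -2.49 ± 0.44 in CTRL cells and -4.43 ± 0.48 in ATRA cells on the log2 scale. Its relative Zfp609 fell by 0.98 (SE 0.18) in CTRL cells and fell by 1.37 (SE 0.18) in ATRA cells. Zfp629 and Zfp467 were also lower in restimulated CTRL cells, with log2 fold changes of -2.33 ± 0.36 and -2.52 ± 0.46, the latter -3.12 without restimulated CTRL replicate 2. Zfp516 and Zfp365 fell in ATRA cells, with log2 fold changes of -3.01 ± 0.34 and -3.07 ± 0.31.

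Zfp935 varied strongly within the restimulated groups, with 243, 204 and 230 counts in CTRL and 250, 237 and 181 in ATRA libraries after co-culture but 0, 0 and 30 and 0, 18 and 21 after restimulation. Libraries of the same group thus ranged from 0 to 30 counts, and the fitted fold change moved from -4.02 to -10.60 without restimulated CTRL replicate 3. Zfp935 lies beside Zfp934 and other copies in RefSeq, and sharing of reads between near-identical copies was not tested.

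Several named members at low levels rose with restimulation. Zfp3 rose in CTRL cells from 1.00, 1.61 and 0.710 to 4.72, 3.38 and 3.66 CPM (1.82 ± 0.38, adjusted p = 0.00311). Zfp300 rose by 2.00 ± 0.65 in CTRL and 2.24 ± 0.66 in ATRA cells, with no library above 2.36 CPM. It had enough counts to test only through its restimulated libraries. Zfp941 rose by 1.38 ± 0.46 in CTRL cells. The CTRL calls of Zfp300 and Zfp941 were lost without 4 and 5 of the 6 CTRL libraries in turn (adjusted p between 0.0667 and 0.152), namely any but co-culture replicate 1 and restimulated replicate 2 for Zfp300 and any but restimulated replicate 3 for Zfp941, and the ATRA value of Zfp300 was 2.98 without co-culture replicate 2. In ATRA cells Zfp597, which was not at low counts, rose by 1.97 ± 0.27, Zfp558 by 2.19 ± 0.46 and Zfp9 by 2.41 ± 0.54, the last by 3.55 without co-culture replicate 3. Zfp809 rose by 0.44 ± 0.11 in CTRL and 0.79 ± 0.12 in ATRA cells.

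In RefSeq gene order, 165 of the 321 placed members stood next to another member. Runs of at least 5 members with no more than 3 other protein-coding genes between neighbours numbered 13 and held 118 members. The median level of the members in runs was 7.22 CPM in CTRL cells after co-culture, against 8.05 CPM for the other 203. Calls of the ATRA effect were 15.3% of tested members in runs and 21.5% of the rest after co-culture, against 33.6% of all genes. After restimulation they were 39.3% and 43.6%, against 62.6%. With restimulation of CTRL cells, 30.1% and 23.5% were called, with medians of 0.28 and 0.15. Over all genes 32.5% were called there, with a median of 0.02, so the share in runs is near that of all genes.

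One run of 19 members, from Zfp712 to Zfp273, is the locus of the regulator of sex-limitation genes, for which 14 of its members carry synonyms in RefSeq. KRAB proteins of this locus are known to repress male-specific liver genes. With restimulation of CTRL cells 9 of the 19 passed the test, all as rises, and 18 of 19 log2 fold changes were above 0 (median 0.62). Over all genes 32.5% were called there and 51.5% were above 0, and over all members 25.8% and 67.1%. After restimulation 9 were lower with ATRA and 2 higher (median -0.41), and after co-culture Zfp712 alone, of 18 tested, was called, and was higher with ATRA. Over all genes the ATRA effect was called for 62.6% after restimulation, so the number of calls there is no result about the run. After co-culture it was called for 33.6% of all genes. This run was singled out after its values were seen, and reads shared between its copies make single genes uncertain. In RefSeq Zfp595 overlaps Zfp953, and Zfp459 overlaps Zfp874a. Sharing of reads between them was not tested.

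Zfp459 was higher with restimulation of CTRL cells and lower with ATRA after restimulation. It had 4.94, 4.78 and 3.51 CPM in CTRL cells after co-culture, 11.0, 12.6 and 11.1 CPM in restimulated CTRL cells and 6.31, 6.27 and 4.90 CPM in restimulated ATRA cells. It thus rose by 1.39 ± 0.23 with restimulation of CTRL cells (adjusted p = 0.000795) and fell by 0.98 (SE 0.18) with ATRA there (adjusted p = 0.000522). Zfp65 went from 14.8, 16 and 14.9 to 27.0, 27.2 and 31.1 CPM with restimulation of CTRL cells and stood at 20.8, 18.7 and 20 CPM in restimulated ATRA cells. Zfp748 and Zfp87 rose with restimulation of CTRL cells by 0.62 and 0.71, with ATRA effects of -0.69 ± 0.13 and -0.39 ± 0.10 after restimulation. For Zfp748 the fall with ATRA was thus as large as the rise. Zfp455, Zfp759 and Zfp493 had the largest falls with ATRA, at -1.27 ± 0.24, -1.1 ± 0.21 and -1.36 ± 0.38. Zfp456 and Zfp429 were the exceptions, higher with ATRA by 0.60 ± 0.17 and 0.73 ± 0.19. Of the rises with restimulation, those of Zfp759, Zfp456 and Zfp738 were lost without 3 of the 6 CTRL libraries in turn (adjusted p between 0.0553 and 0.110), always including restimulated replicate 3, and the fall of Zfp595 with ATRA was lost without CTRL replicate 1 or any 1 ATRA replicate (adjusted p between 0.0612 and 0.126).

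**Figure D4:**
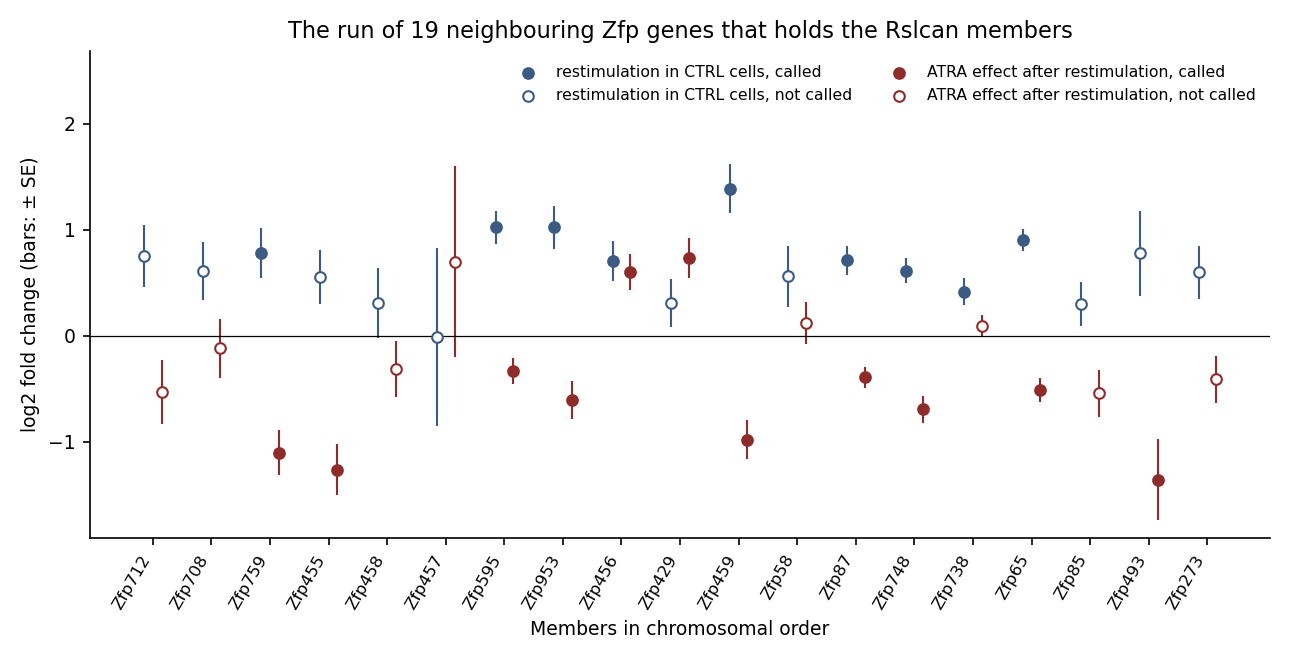
Log2 fold change with SE for the 19 Zfp genes from Zfp712 to Zfp273 in chromosomal order, for restimulated against co-cultured CTRL cells (blue) and ATRA against CTRL after restimulation (red), filled where called. The blue points lie above 0 for 18 of 19 genes, while 9 filled red points lie below 0 and 2 above.

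Other runs are given for restimulation of ATRA cells, in which 53.2% of members and 61.3% of all genes were called, so shares near these are no result about a run. By direction, 30.6% of members were higher and 22.6% lower, against 29.8% and 31.5% of all genes. In the largest run, from Zfp677 to Zfp40, which holds Zfp948 and Zfp945, 8 of 20 were higher and 1 lower. In the run from Zfp84 to Zfp146, 7 of 14 tested members were called, all higher, and in that from Zfp871 to Zfp563 5 of 7, all higher. In the run from Zfp787 to Zfp28 4 of 6 were lower, and in that from Zfp579 to Zfp580 4 of 5 were lower and 1 higher. The run from Zfp712 to Zfp273 had 5 higher and 4 lower of 19 there. In the remaining runs, 1 was higher and 1 lower of 8 from Zfp180 to Zfp94, and 2 and 4 of 8 from Zfp786 to Zfp467. From Zfp553 to Zfp689 these counts were 1 and 4 of 7, and from Zfp329 to Zfp446 3 and 1 of 5. They were 2 and 0 of 5 from Zfp560 to Zfp846 and from Zfp60 to Zfp850, and 1 and 1 of 4 from Zfp991 to Zfp933. With ATRA after restimulation, 5 of 20 members of the run from Zfp677 to Zfp40 were higher and 1 lower, against 31.8% and 30.8% of all genes.

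The partners through which KRAB proteins act were read from a list of 28 corepressor and heterochromatin genes. After co-culture 3 rose and 7 fell with ATRA, 35.7% of the list against 33.6% of all genes tested, with a median log2 fold change of -0.30. After restimulation 4 rose and 18 fell, 78.6% against 62.6%, with a median of -0.31. Trim28 itself had 325 ± 9.72 CPM in CTRL and 366 ± 37.4 CPM in ATRA cells after co-culture (0.17 ± 0.10, adjusted p = 0.199) and 382 ± 41.2 and 268 ± 8.23 CPM after restimulation (-0.50 ± 0.08, adjusted p = 0.000128). The difference of its 2 effects was -0.68 ± 0.14 (adjusted p = 0.00132). Setdb1 differed by -0.11 ± 0.09 after co-culture (adjusted p = 0.357) and rose by 0.28 ± 0.08 after restimulation (adjusted p = 0.00687).

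The calls with the smallest p in this list after co-culture were Dnmt3a, a de novo DNA methyltransferase, which fell by 2.16 (SE 0.17, adjusted p = 0.000707), and Ehmt2, a histone H3 lysine methyltransferase, which rose by 0.80 ± 0.13 (adjusted p = 0.00719). Both were called the other way after restimulation, Dnmt3a with a rise of 0.67 ± 0.08 (adjusted p = 1.62e-05) and Ehmt2 with an effect of -1.05 ± 0.09 (adjusted p = 5.66e-07). The remodeller Chd3 likewise rose by 0.96 ± 0.17 and then fell by 1.74 (SE 0.08), and Trim24, a relative of Trim28, rose by 0.48 ± 0.14 and then fell by 0.19 (SE 0.08). After restimulation the calls with the smallest p were Dnmt1, which copies methylation at replication and fell by 1.79 (SE 0.06, adjusted p = 2.37e-10), and its recruiter Uhrf1, which fell by 2.15 (SE 0.08, adjusted p = 9.84e-10). Suv39h1, Cbx5 and Cbx3, which write and bind the heterochromatin mark, had ATRA effects of -2.23 ± 0.10, -2.10 ± 0.09 and -1.27 ± 0.06 after restimulation. Suv39h1, Cbx5 and Cbx3 were chosen after their values were seen. The rises called in this list after restimulation, 4 against 18 falls, were those of Dnmt3a, Setdb1, Resf1 and Tasor. Resf1 rose most, by 1.68 ± 0.13 (adjusted p = 4.29e-06), and Tasor rose by 0.37 ± 0.08 (adjusted p = 0.00227).

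**Figure D5:**
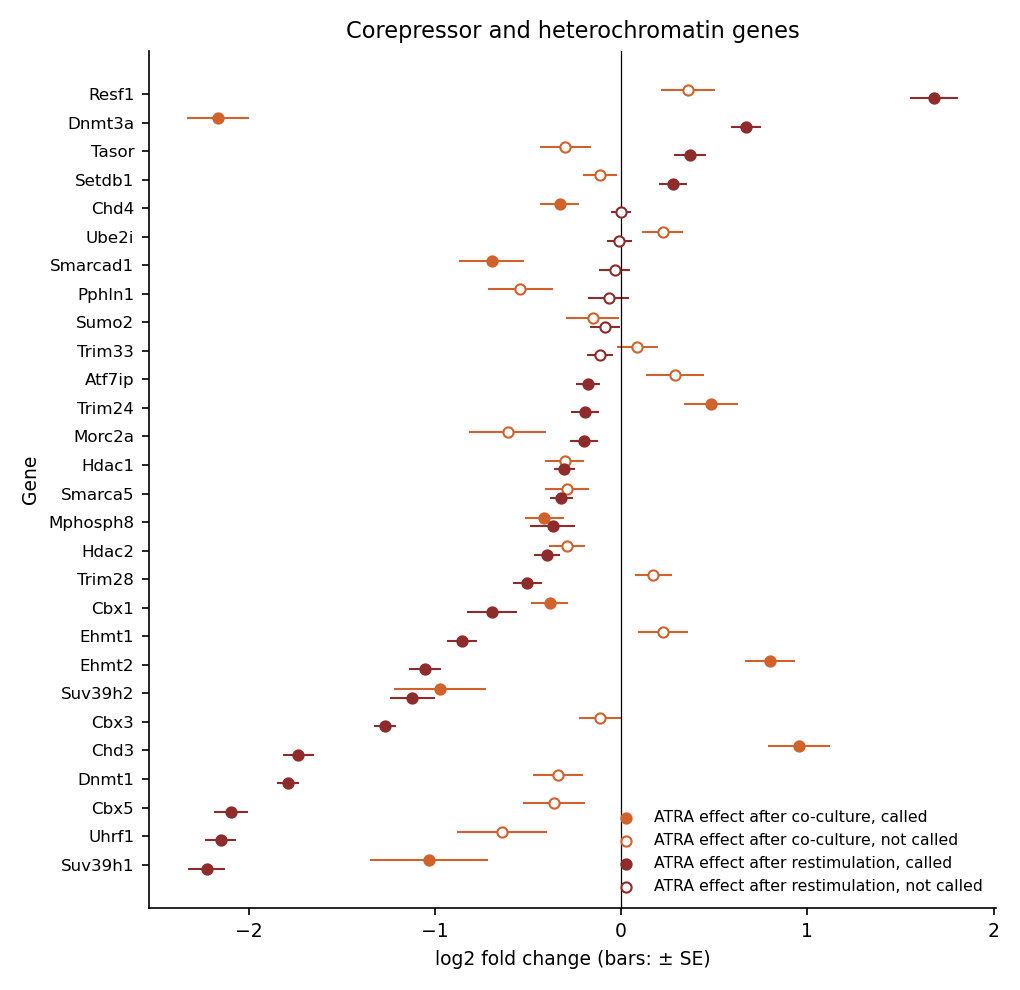
Log2 fold change with SE of ATRA against CTRL for 28 corepressor and heterochromatin genes, after co-culture (orange) and after restimulation (dark red), filled where called. After restimulation 18 filled points lie below 0 and 4 above, and Dnmt3a, Ehmt2, Chd3 and Trim24 have filled points on both sides.

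Other families with C2H2 fingers were counted in the same way. Of 37 Zbtb genes, in which the fingers follow a BTB domain, 7 rose and 1 fell with ATRA after co-culture and 15 rose and 10 fell after restimulation (21.6% and 67.6%). Of 11 Klf genes 4 rose after co-culture, and 4 rose and 2 fell after restimulation. Of 5 Sp genes 2 fell after restimulation. Of 8 Zkscan genes 2 rose after co-culture and 1 after restimulation, and of 9 Zscan genes 1 rose after co-culture, and 1 rose and 2 fell after restimulation. The share of Zfp members called, 19.1% and 42.2%, was below that of the Zbtb genes in both states and above that of the Zscan genes (11.1% and 33.3%). The shares were 36.4% and 54.5% for Klf, 25% and 12.5% for Zkscan and 0% and 40% for Sp genes. Over all genes they were 33.6% and 62.6%. The families were not matched for level, and the differences between them were not tested.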

How the data were processed

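RNA of sorted cells was measured in 12 libraries made with a stranded total RNA kit, per the labels' protocols. The authors deposited whole-number counts per gene symbol in 1 table for each state, and TPM for the restimulated libraries, whose columns show the treatment but no library. The submitters' processing notes name the build mm39 and the tools STAR 2.7.11b, cutadapt 5.0, DESeq2 1.42.1 and Salmon 1.10.3. How each was used, with which annotation and strand setting, is not given in the sources used here. Row sums in the co-culture table began at 10, so rarer genes are missing there.

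Groups follow the sample titles. Tests used edgeR 4.0.16 in R 4.3.3: TMM scaling, filterByExpr, robust quasi-likelihood fits on whole tables and Benjamini-Hochberg adjustment over all genes tested, with calls at an adjusted p under 0.05. ATRA effects were fitted within each state, and differences between states in a joint fit of genes in both tables. CPM levels of the members and of the corepressor genes use the TMM factors of that joint fit. Sums of cell type markers and correlations between replicates use the factors of the fit within each state. Of 32 repeated symbols, the row with the largest total was kept. Of 322 members, 11 were too low for any fit. No per-sample column was left unused. One marker list is not reported here. Scripts were tested on simulated data.

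Replicate numbers mark shared batches in the labels, so they pair CTRL with ATRA libraries within a state. The correlations of paired deviations were 0.13, -0.061 and 0.066 after co-culture and -0.035, -0.095 and 0.04 after restimulation. No pair of libraries in a group agreed within sampling noise (lowest chi-square per degree of freedom 3.76).

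Members and gene lists were chosen with earlier results of these data known. Genes named with full values were, for each ATRA comparison, the 6 called members with the largest log2 fold change either way, given groups without overlap and 1 CPM or more on average, the 4 largest in each direction for the other comparisons, the highest levels and 27 members by known role. Any other gene is said to be chosen after its values were seen, or completes a count. Alternatives were DESeq2 1.42.0, DESeq2's scaling in edgeR, no filter, no robust estimation, a call of at least 2-fold, the replicate block, summed repeats, limma 3.58.1 on log2(TPM + 1) and log2(TPM + 0.1), and leaving out libraries. RefSeq symbols matched 321 of 322 members and gave gene order and promoters. Protein features were not computed.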

Additional observations from a re-analysis of the deposited data

Results flagged for a closer look

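For 30 of the members named by rule, the effect of ATRA differed between the states in the joint edgeR fit (adjusted p under 0.05), given here as the log2 effect after restimulation minus that after co-culture. More positive after restimulation were Zfp318 at 2.56, Zfp334 at 2.47, Zfp948 at 2.36, Zfp9 at 2.23, Zfp597 at 2.17, Zfp976 at 1.58, Zfp568 at 1.52, Zfp703 at 1.31, Zfp263 at 1.19, Zfp410 at 1.0, Zfp830 at 0.95, Zfp326 at 0.75, Zfp638 at 0.71 and Zfp281 at 0.45. More negative were Zfp365 at -3.66, Zfp710 at -2.76, Zfp3 at -2.30, Zfp652 at -2.19, Zfp516 at -2.11, Zfp473 at -2.03, Zfp608 at -1.95, Zfp808 at -1.93, Zfp775 at -1.62, Zfp316 at -1.42, Zfp292 at -1.0, Zfp692 at -1.0, Zfp217 at -0.99, Zfp101 at -0.85, Zfp87 at -0.62 and Zfp706 at -0.58. The state is confounded with the batch set and the table, but each effect is taken within 1 state. Zfp469, too low to test after co-culture, was also called, at 8.86, and is not among these 30. The calls of Zfp9, Zfp87, Zfp281, Zfp316, Zfp326, Zfp608 and Zfp976 were lost when some single libraries were left out (adjusted p between 0.0507 and 0.102). With the batch block those of Zfp281, Zfp608 and Zfp976 were lost (adjusted p = 0.0591, 0.0519 and 0.0786). Left out in turn, 10 of the 12 libraries ended the call of Zfp976, 9 those of Zfp281 and Zfp316, 8 that of Zfp326, 7 that of Zfp9, 3 that of Zfp608 and 2 that of Zfp87.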

How the results depend on the processing

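The member values recomputed kept their direction under every alternative run for them, except that of Zfp236 after restimulation, which was -2.46 with limma on log2(TPM + 1) and -2.49 on log2(TPM + 0.1). Counts moved with the call rule, the libraries, the tool and the scale. Counts that moved are given as higher and lower members. A call of at least 2-fold left 15 and 4 after co-culture, 21 and 22 after restimulation, 26 and 40 for the difference of effects, and 11 and 12 (CTRL) and 32 and 37 (ATRA) for restimulation. The shares over all genes were then 15.1%, 25.7%, 29.5%, 12.8% and 29.1%, in that order. The replicate block, which pairs libraries by batch, gave 24 and 6 after co-culture, with 23.9% of all genes called. Without CTRL replicate 1 and ATRA replicate 3 of the co-culture, 81 and 48 were called there, with 65.1% of all genes. Leaving out 1 library gave ranges of 13 to 56 and 2 to 30 after co-culture, 58 to 72 and 50 to 66 after restimulation, 37 to 54 and 53 to 72 for the difference, 32 to 52 and 17 to 25 for restimulation of CTRL cells, and 79 to 90 and 54 to 74 for ATRA cells. The shares over all genes then ranged, in that order, from 13% to 45.4%, 55.5% to 62.7%, 42.5% to 56.2%, 22.4% to 28.7% and 53.1% to 65.5%. The arm of 2 left is then assumed to vary like the others. Of 138 member values, 137 kept their side of the threshold under DESeq2's scaling and 133 under DESeq2, and limma on log2(TPM + 1) kept 36 of 45. Of 100 values within a state or for the difference, the block changed 14 calls, each given with its result. Over all members it kept 28 of the 58 calls after co-culture, 121 of 127 after restimulation and 93 of 113 for the difference. DESeq2 called 53 and 27 after co-culture and 66 and 30 for restimulation of CTRL cells, and limma on log2(TPM + 1) 49 and 49 after restimulation. Over all genes the shares were 42.4%, 36.8% and 47.7%, in that order. No paired analysis was possible between the states because their batch sets differ. With 3 libraries a group, members under 1 CPM rest on few counts, and copies that share reads are uncertain.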

Other observations

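Zfp236 was the only member of the 127 called after restimulation whose deposited group mean TPM went the other way from its counts. Its counts were 1011, 996 and 1171 in CTRL and 1591, 1464 and 1564 in ATRA libraries (log2 fold change 0.44 ± 0.09, adjusted p = 0.000977). The TPM columns held 589, 196 and 23.2 for CTRL and 29.3, 21.9 and 23.5 for ATRA, so 2 CTRL columns stood far above the rest without a rise in counts. The reason was not tested. Zfp236 sits next to Zfp516 in RefSeq.

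Of the 55 symbols of this form found in the restimulated table alone, 30 had a count above 0. They belong in no comparison between the states and were not analysed further here.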
